A study of Danio rerio with 24 samples.

Results

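The miR-17-92 cluster is a set of microRNAs (miRNAs) cut from a single primary transcript, and its 6 guide strands, the strands loaded into the silencing complex, are followed here in whole zebrafish embryos. The members were taken by name: dre-miR-17a, dre-miR-18a, dre-miR-19a, dre-miR-19b, dre-miR-20a and dre-miR-92a, which is 6 of 231 miRNA names on an Agilent array and 6 of 224 zebrafish names on an Exiqon array. Passenger strands, the other strand of each hairpin, and paralogues from related loci were kept apart from them by name. A name does not separate all loci, since miR-17a and miR-92a each have another gene outside the cluster. All 6 members were tested on both platforms, by 12 probes on Agilent and 9 on Exiqon.

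MiRNAs pair with target transcripts mainly through a short seed near their 5′ end and lower the output of those transcripts. The cluster holds members of several seed families: miR-17a and miR-20a share a seed, miR-18a has one close to it, miR-19a and miR-19b share another, and miR-92a belongs to a separate family with miR-25 and miR-363. In mammals the cluster is known for promoting proliferation and survival of progenitor cells, in blood, heart and lung development among others, and for its activation by MYC.

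The embryos were of the wild-type TL strain. They were exposed for 1 h, from 30 hours post-fertilization (hpf), to the dioxin TCDD, which binds and activates the aryl hydrocarbon receptor, or to its solvent DMSO, and were sampled at 60 or 36 hpf. The 4 groups were thus TCDD at 60 hpf, DMSO at 60 hpf, TCDD at 36 hpf and DMSO at 36 hpf, each with 3 replicates per platform, or 12 arrays each. Neither the dose nor the number of embryos per sample is given in the sources used. Whole embryos were measured, so fewer cells of a type and less RNA per cell cannot be told apart.

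Agilent levels are 1-colour intensities divided by the 75th percentile of their own array, so a level of 1 equals that percentile. Exiqon values are log2 ratios of the sample over a reference pool of the study's RNA samples on the same array, normalized by loess. Changes are log2 differences ± standard error (SE) with n = 3 arrays per group, from 1 limma model per platform, and adjusted p is after Benjamini-Hochberg adjustment over the 134 (Agilent) or 223 (Exiqon) miRNAs tested. A change passed at an adjusted p under 0.05. The number of arrays limits the precision, and levels of different probes are not set against each other, except to show that a probe is dim.

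On Agilent, arrays of a group correlated at 0.991 to 0.999 and arrays of different stages at 0.868 to 0.910. On Exiqon, arrays of a group correlated at 0.905 to 0.990 and arrays of different stages at -0.61 to -0.51. The labels give the sample's dye, and the file of that dye was picked by its control spots. All 13 markers of muscle, neuron, erythrocyte, liver, epidermis and sensory cells were detected on both platforms. By the rule used for the markers on each platform, 134 of 231 names counted as detected on Agilent and 223 of 224 on Exiqon. The spot rules differ between the platforms, so these shares are not comparable. On Exiqon the marker count thus tells little about the tissues. Spots were left out at 3.05% to 6.39% of an Agilent array and 7.99% to 48.2% of an Exiqon array, the highest share being that of TCDD replicate 3 at 60 hpf.

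The Agilent capture probes show how alike the members are, and so which readings could share signal. They are given as DNA 5′ to 3′ as the array's design file lists them, in the order the file places them on chromosome 8 of danRer5, and capitals mark the base that differs within a pair of close relatives. Only the longer of each member's 2 probes is shown.
miR-17a: tacctgcactGtaagca
miR-18a: tatctgcactagatgcac
miR-19a: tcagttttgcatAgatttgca
miR-20a: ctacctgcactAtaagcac
miR-19b: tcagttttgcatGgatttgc
miR-92a: acaggccgggacaagt

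The miR-17a probe was placed at chr8:45337794-45337810 and the miR-92a probe at chr8:45338606-45338621, so the 6 members spanned 828 bases. Between them lay miR-18a at chr8:45337925-45337941, miR-19a at chr8:45338117-45338136, miR-20a at chr8:45338298-45338315 and miR-19b at chr8:45338486-45338504. For these 4 the listed interval is 1 base shorter than the probe, and the positions were not checked against a genome. Of a member's 2 probes, the longer has 1 more base at its 3′ end and 1 more position at the low end of its interval. The printed bases thus read toward lower positions. The miR-17a and miR-92a probes each had 2 listed positions. In the RefSeq gene table of a later assembly the 6 genes were also direct neighbours, but on chromosome 1. By position they ran in the reverse order there, from miR-92a to miR-17a. Another miR-17a gene and another miR-92a gene lay on chromosome 9, on either side of miR-18b. The readings of these 2 members therefore cannot be given to the cluster's locus alone.

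Counted from the 5′ end of the first-named probe, miR-17a and miR-20a differed by G11A over 17 aligned bases, and miR-19a and miR-19b by A13G over 20. Probes of relatives outside the cluster were as close: miR-18a and miR-18b differed by G12A over 18 bases, miR-19b and miR-19d by A15G over 17, and miR-17a and miR-20b not at all over the 12 bases they share. MiR-92a and miR-25 matched at 13 of 16 bases. How far such relatives hybridize to each other's probes was not tested.

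Between 36 and 60 hpf the scaled levels of the cluster's guide strands fell on Agilent in both treatments. All 6 members passed downward in TCDD embryos, where 31.3% of all tested miRNAs were lower and 50.7% higher at 60 hpf. All 6 also passed downward in DMSO embryos, where 32.1% were lower and 47.8% higher. The median change of the members was -0.43 in TCDD and -0.41 in DMSO embryos, against 0.21 and 0.11 over all 134 miRNAs. For every member, all 3 arrays at 60 hpf lay below all 3 at 36 hpf in both treatments. Of all 134 miRNAs, 44 lay below in this way in TCDD and 43 in DMSO embryos. In either direction, 114 and 105 had the stages apart.

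In the seed family of miR-17a and miR-20a, miR-17a was at a scaled level of 3.68, 3.37 and 3.61 in TCDD and 3.64, 3.65 and 3.69 in DMSO embryos at 60 hpf, against 4.46, 4.26 and 4.45 in TCDD and 4.34, 4.47 and 4.39 in DMSO embryos at 36 hpf. The later stage thus lay below the earlier one on every array, while the treatments overlapped at each stage. The change was -0.30 ± 0.05 in TCDD embryos (adjusted p = 9.87e-05) and -0.27 ± 0.05 in DMSO embryos (adjusted p = 0.000309). MiR-20a was at 5.82, 5.17 and 5.51 in TCDD and 5.75, 5.61 and 5.67 in DMSO embryos at 60 hpf, against 7.70, 7.37 and 7.88 in TCDD and 7.09, 7.49 and 7.77 in DMSO embryos at 36 hpf. It fell by 0.48 ± 0.06 in TCDD embryos (adjusted p = 9.33e-06) and by 0.39 ± 0.06 in DMSO embryos (adjusted p = 6.04e-05). Some of its spots were saturated on 2 arrays: 4 of 10 spots on TCDD replicate 3 and 5 of 10 on DMSO replicate 2, both at 60 hpf. Its 18-base probe had no saturated spot and gave 4.47, 3.76 and 4.17 in TCDD embryos at 60 hpf, against 5.89, 5.63 and 5.90 at 36 hpf. In the fit over 255 Agilent probes this shorter probe passed downward in DMSO embryos as well.

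MiR-18a moved the same way. Its levels were 1.08, 1.09 and 1.01 in TCDD and 1.05, 1.03 and 1.12 in DMSO embryos at 60 hpf, against 1.28, 1.23 and 1.23 in TCDD and 1.36, 1.30 and 1.24 in DMSO embryos at 36 hpf. The stages were apart in both treatments, by -0.24 ± 0.05 in TCDD embryos (adjusted p = 0.00162) and -0.29 ± 0.05 in DMSO embryos (adjusted p = 0.000449).

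In the miR-19 seed family, miR-19a fell in both treatments. Its levels were 2.76, 2.54 and 2.81 in TCDD and 2.84, 2.80 and 3.02 in DMSO embryos at 60 hpf, against 4.25, 4.10 and 4.39 in TCDD and 3.93, 4.14 and 4.26 in DMSO embryos at 36 hpf. No array at 60 hpf came near those at 36 hpf, and the drop was 1.57-fold in TCDD embryos (log2 -0.65 ± 0.06, adjusted p = 5.54e-07) and 1.42-fold in DMSO embryos (log2 -0.51 ± 0.06, adjusted p = 5.7e-06).

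MiR-19b was close to the scanner's limit on its brighter, 20-base probe. Of 10 spots per array, 10, 0 and 10 were saturated in TCDD and 10, 10 and 7 in DMSO embryos at 60 hpf, against 5, 4 and 10 in TCDD and 0, 10 and 8 in DMSO embryos at 36 hpf. Since all 60 hpf DMSO arrays were affected, that probe gives no bounded fold there. Its fitted changes were -0.56 ± 0.10 in TCDD embryos (adjusted p = 0.000199) and -0.50 ± 0.10 in DMSO embryos (adjusted p = 0.000597). The 19-base probe had no saturated spot. It was at 3.31, 3.15 and 3.18 in TCDD and 3.68, 3.11 and 3.45 in DMSO embryos at 60 hpf, against 5.02, 4.98 and 4.58 in TCDD and 4.88, 4.76 and 4.38 in DMSO embryos at 36 hpf. In the fit over 255 Agilent probes it fell by 0.60 ± 0.07 in TCDD embryos (adjusted p = 1.27e-05) and by 0.46 ± 0.07 in DMSO embryos (adjusted p = 0.000139), so the difference was also present without saturation.

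MiR-92a was at 1.11, 1.32 and 1.10 in TCDD and 1.11, 1.18 and 1.22 in DMSO embryos at 60 hpf, against 1.58, 1.49 and 1.49 in TCDD and 1.71, 1.501 and 1.52 in DMSO embryos at 36 hpf. TCDD replicate 2 at 60 hpf was the highest of the later arrays and still below every earlier one. The change was -0.38 ± 0.08 in TCDD embryos (adjusted p = 0.000894) and -0.43 ± 0.08 in DMSO embryos (adjusted p = 0.000403).

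**Figure D1:**
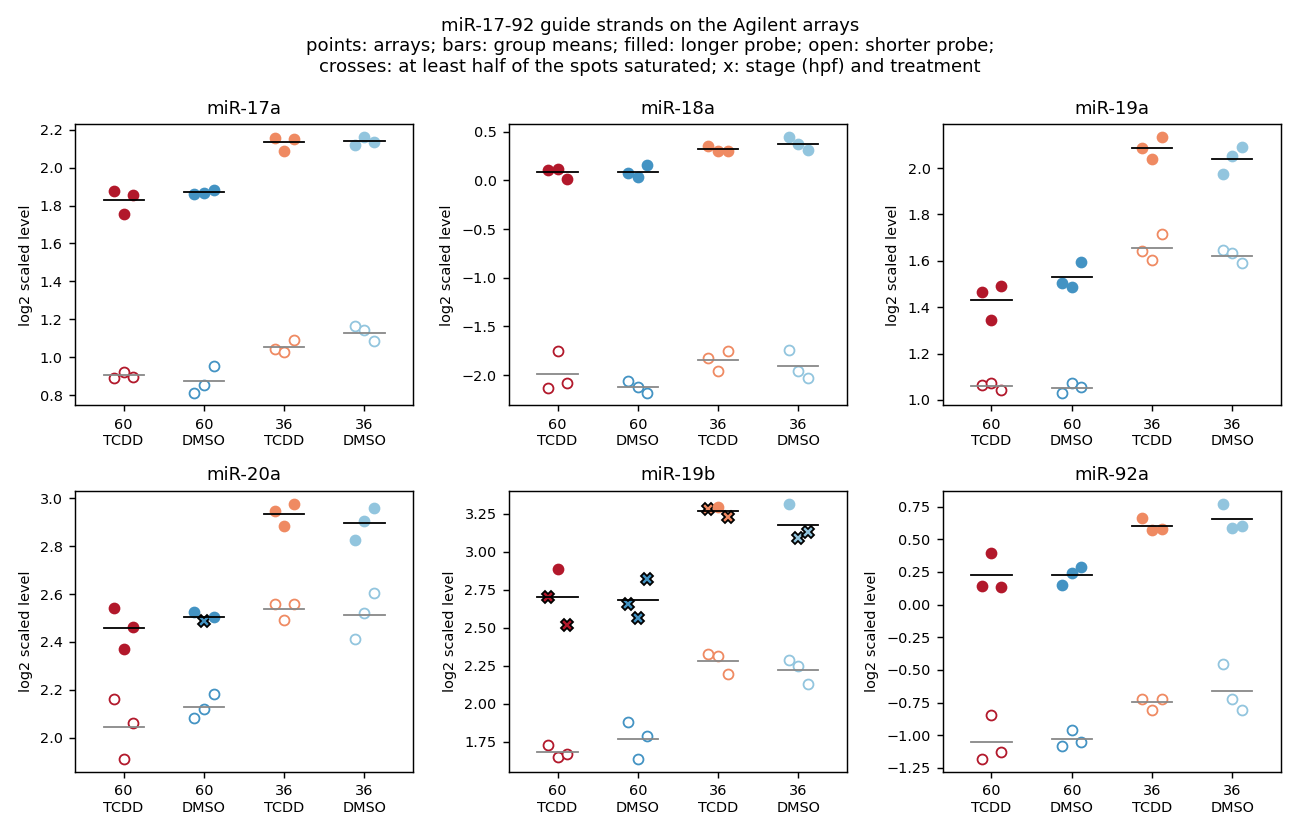
Log2 of the scaled Agilent level of each guide strand (y axis, 0 at the array's 75th percentile) by group (x axis), with 1 point per array, bars at group means, filled points for the longer probe, open points for the shorter one and crosses where at least 0.5 of the spots were saturated. For miR-19a the longer probe averaged a log2 level of 1.43 in TCDD embryos at 60 hpf and 2.09 at 36 hpf.

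The 2 probes of a member agreed in sign for the stage difference. Of 12 probes, 11 passed downward in TCDD and 11 in DMSO embryos, against 28.6% and 29.4% of the 255 probes tested. The exception in both was the 17-base probe of miR-18a, at -0.14 in TCDD embryos (adjusted p = 0.225) and -0.21 in DMSO embryos (adjusted p = 0.0877). Across all 12 probes the changes ran between -0.65 and -0.14 in TCDD and between -0.57 and -0.21 in DMSO embryos.

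**Figure D2:**
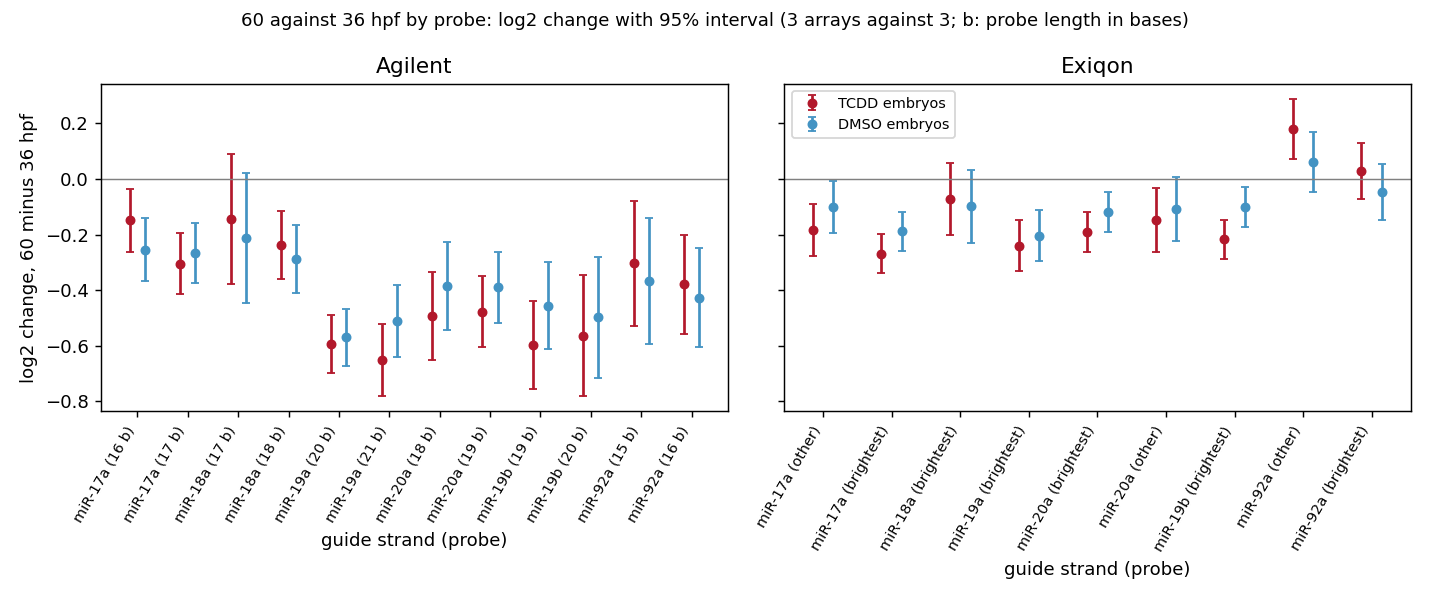
Log2 change between stages (60 minus 36 hpf, y axis) with 95% intervals for every Agilent and Exiqon probe of the 6 members, in TCDD and in DMSO embryos. All 12 Agilent probes lie below 0 in both treatments, while the 9 Exiqon probes straddle it.

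The stage difference did not rest on 1 slide. Replicate 1 of each group shared the first slide, and on it the 12 stage differences (6 members, 2 treatments) were all negative. All 6 members passed in both treatments within the second slide and with slide as a block. The array scale itself moved with stage: the 75th percentile was 7029 to 11261 in TCDD and 8924 to 10792 in DMSO embryos at 60 hpf, against 6307 to 6858 in TCDD and 5436 to 7598 in DMSO embryos at 36 hpf. With quantile normalization, 3 of 6 members passed in each treatment, and miR-19b (0.0087) and miR-20a (0.031) turned in sign in TCDD embryos, where the median of all miRNAs was -0.12. The part of the scale in the stage difference was not tested further.

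On Exiqon 5 of the 6 members had negative stage differences in TCDD embryos and 6 of 6 in DMSO embryos, at smaller size, and 4 passed in each. Of all 223 miRNAs, 71 and 76 had negative differences. In TCDD embryos miR-17a, miR-19a, miR-19b and miR-20a fell, where 16.1% of the 223 tested miRNAs were lower and 51.6% higher at 60 hpf. In DMSO embryos the 4 fell again, where 16.6% were lower and 48.9% higher. The members' median was -0.20 in TCDD and -0.11 in DMSO embryos, against 0.14 and 0.11 over all miRNAs. For these 4 members, all arrays at 60 hpf lay below all at 36 hpf in each treatment. Of all 223 miRNAs, 35 lay below in this way in TCDD and 44 in DMSO embryos. In either direction, 154 and 167 had the stages apart.

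MiR-17a had log2 ratios of -0.16, -0.17 and -0.14 in TCDD and -0.11, -0.07 and -0.07 in DMSO embryos at 60 hpf, against 0.12, 0.06 and 0.14 in TCDD and 0.10, 0.08 and 0.13 in DMSO embryos at 36 hpf. On this brighter of its 2 probes the stages did not overlap, and the change was -0.27 ± 0.03 in TCDD embryos (adjusted p = 3.92e-06) and -0.19 ± 0.03 in DMSO embryos (adjusted p = 0.000131). MiR-20a had ratios of -0.11, -0.10 and -0.03 in TCDD and -0.05, -0.05 and -0.0087 in DMSO embryos at 60 hpf, against 0.13, 0.08 and 0.14 in TCDD and 0.08, 0.10 and 0.07 in DMSO embryos at 36 hpf. It fell by 0.19 ± 0.03 in TCDD embryos (adjusted p = 0.000152) and by 0.12 ± 0.03 in DMSO embryos (adjusted p = 0.00578).

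MiR-19a had ratios of -0.14, -0.15 and -0.05 in TCDD and -0.10, -0.13 and -0.04 in DMSO embryos at 60 hpf, against 0.16, 0.17 and 0.05 in TCDD and 0.11, 0.09 and 0.15 in DMSO embryos at 36 hpf. Replicate 3 of the TCDD groups was nearest the other stage at both times, without overlap. MiR-19a fell by 0.24 ± 0.04 in TCDD embryos (adjusted p = 0.000166) and by 0.20 ± 0.04 in DMSO embryos (adjusted p = 0.000673). MiR-19b had ratios of 0.06, 0.08 and 0.0035 in TCDD and 0.05, 0.03 and 0.07 in DMSO embryos at 36 hpf, above all those at 60 hpf, which are given with the TCDD comparison. It fell by 0.22 ± 0.03 in TCDD embryos (adjusted p = 4.48e-05) and by 0.10 ± 0.03 in DMSO embryos (adjusted p = 0.0156).

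MiR-18a and miR-92a did not pass on Exiqon with the settings used here. MiR-18a ratios overlapped between stages, from -0.15 to 0.06 in TCDD embryos at 60 hpf against -0.03 to 0.15 at 36 hpf, with a difference of -0.07 (adjusted p = 0.309) and, in DMSO embryos, of -0.10 (adjusted p = 0.164). It passed downward in some alternatives: in DMSO embryos with the sample channel alone (-0.37, adjusted p = 0.000541), the deposited value table (-0.20, adjusted p = 0.0394), image analysis day as a block (adjusted p = 0.0411) and within day 1 (adjusted p = 0.0451), and in TCDD embryos with the sample channel alone (-0.32, adjusted p = 0.0017) and day as a block (-0.13, adjusted p = 0.0155). The brighter miR-92a probe differed by 0.03 in TCDD embryos (adjusted p = 0.588) and by -0.05 in DMSO embryos (adjusted p = 0.392). MiR-92a passed downward in DMSO embryos with the deposited value table (-0.14, adjusted p = 0.0493). In TCDD embryos it passed upward with the mean of all its probes (0.11, adjusted p = 0.0473). The dimmer miR-92a probe rose in TCDD embryos, with ratios of 0.0090, 0.14 and 0.25 at 60 hpf against -0.0011, -0.07 and -0.07 at 36 hpf, a change of 0.18 ± 0.05 in the fit over 254 probes (adjusted p = 0.00526). In DMSO embryos it differed by 0.06, which did not pass. Of the 9 Exiqon probes of the members, 6 passed downward and 1 upward in TCDD embryos, and 4 passed downward in DMSO embryos, against 15.4% and 14.96% of all probes tested that passed downward. The second miR-17a probe overlapped between stages in DMSO embryos, at -0.13, -0.14 and 0.0066 at 60 hpf against 0.0070, 0.0035 and 0.03 at 36 hpf.

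The Exiqon direction depends on the centring. With each array's log ratios centred on their median in place of loess, the median of all miRNAs was 0.43 in TCDD and 0.31 in DMSO embryos, the members' was 0.36 and 0.27, and the 4 members named above turned positive in both treatments. MiR-18a, miR-20a and miR-92a then passed upward in TCDD embryos, and miR-18a in DMSO embryos. Relative to the median of all miRNAs, 5 of 6 members were still lower in TCDD and 4 of 6 in DMSO embryos. Of all miRNAs, 150 were then higher and 7 lower in TCDD embryos, and 120 and 9 in DMSO embryos, against 115 and 36, and 109 and 37, with loess. Scan 2 held the 3 DMSO arrays of 36 hpf and no others, so in comparisons with that group scan and group cannot be told apart.

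**Figure D3:**
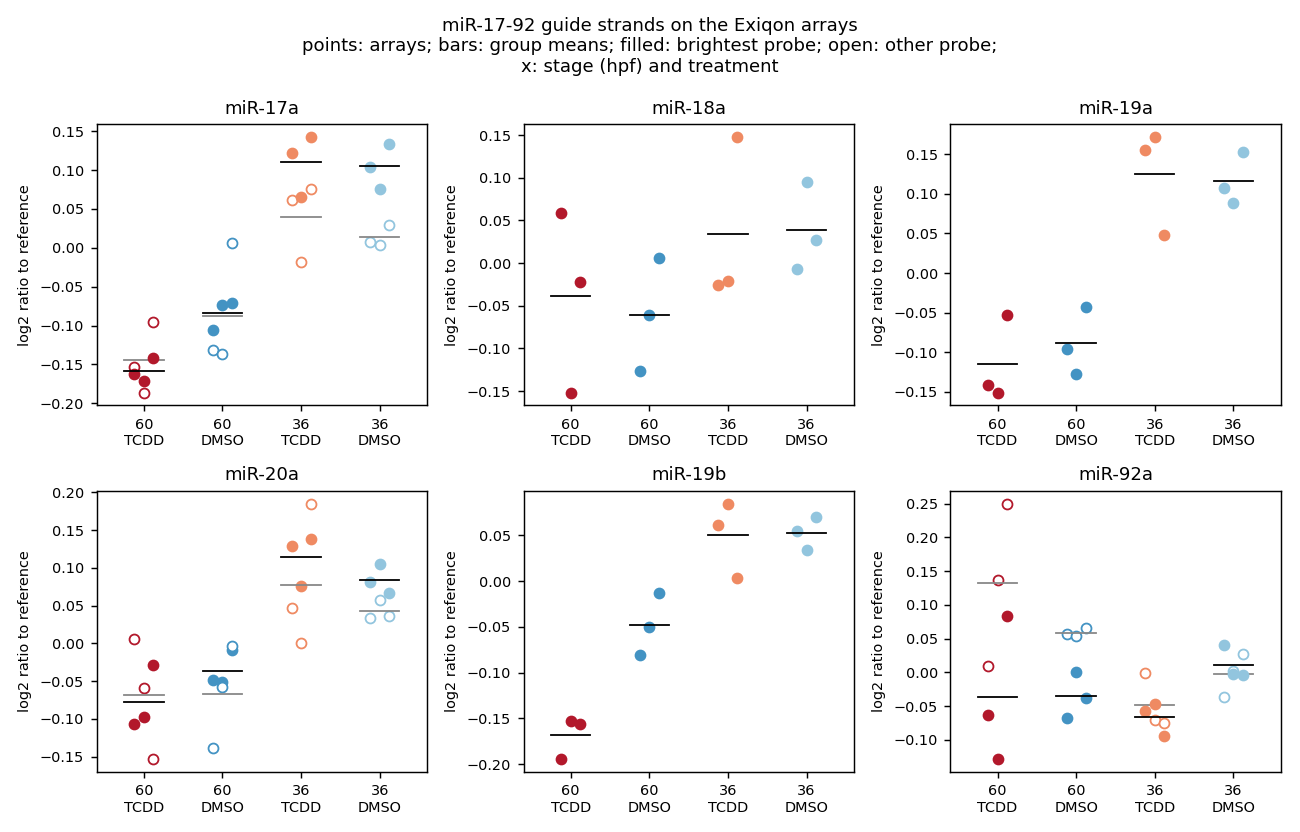
Exiqon log2 ratio of sample over reference pool (y axis) for each guide strand by group (x axis), with 1 point per array, bars at group means, filled points for the brightest probe and open points for the other one. The filled miR-17a points lie between -0.17 and -0.07 at 60 hpf and between 0.06 and 0.14 at 36 hpf, while those of miR-18a overlap.

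With TCDD no member passed the threshold on Agilent at either stage. At 60 hpf 0 of 6 passed, where 2.99% of all miRNAs did, and 0 of 6 had groups apart, against 11.2% of all. At 36 hpf 0 of 6 passed, against 0.746%, and 0 of 6 were apart, against 14.9%. No member had an unadjusted p under 0.05 at either stage. Without the saturated 20-base probe of miR-19b, the 95% limits over the other 11 probes of the members allowed a TCDD-to-DMSO ratio between 0.842 and 1.29 at 60 hpf and between 0.806 and 1.23 at 36 hpf. At 60 hpf miR-19a was at -0.10, with TCDD and DMSO arrays overlapping. The brighter miR-19b probe, saturated on 2 of 3 TCDD and 3 of 3 DMSO arrays, gives no fold there.

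On Exiqon at 60 hpf 0 of 6 members passed, where 5.38% of all miRNAs did. For 2 of 6, miR-17a and miR-19b, all TCDD arrays lay below all DMSO arrays. Of all 223 miRNAs, 22 lay below in this way and 33 above, so 24.7% had groups apart. MiR-19b lay at the threshold. Its ratios were -0.19, -0.15 and -0.16 in TCDD embryos and -0.08, -0.05 and -0.013 in DMSO embryos, a difference of -0.12 ± 0.03 (unadjusted p = 0.00319, adjusted p = 0.0508). It passed with adjusted p = 0.0486 when only miRNAs missing on at most 1 array were tested. The fit over 254 probes gave the same value. Over all alternatives its adjusted p was between 0.0307 and 0.917, and it passed in 5 of 25. The difference itself ran from -0.19 with median centring to 0.08 with the sample channel alone (adjusted p = 0.424), where its sign was reversed. TCDD replicates 1 and 3, with 37.0% and 48.2% of spots left out, were analysed on image analysis day 2, while TCDD replicate 2 and all 3 DMSO arrays were on day 1. The difference was -0.09 ± 0.04 with day as a block (adjusted p = 0.205) and -0.10 ± 0.04 within day 1, where 1 TCDD array stands against 3 DMSO arrays (adjusted p = 0.234). Day and treatment are thus largely confounded in Exiqon's 60 hpf comparison. They are fully so without TCDD replicate 2, the setting that gave miR-19b its lowest adjusted p of 0.0307. On Agilent its unsaturated probe differed by -0.09 ± 0.07 (adjusted p = 0.785) at that stage. MiR-17a differed by -0.07 ± 0.03 on Exiqon (unadjusted p = 0.0364, adjusted p = 0.18).

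At 36 hpf 0 of 6 members passed on Exiqon, against 0.448% of all miRNAs. MiR-92a alone of the 6 had groups apart, against 25.1% of all, with ratios of -0.06, -0.05 and -0.09 in TCDD embryos and 0.04, -0.0030 and -0.0043 in DMSO embryos. Its difference was -0.08 (adjusted p = 0.681). With loess and the brightest probes, the fitted limits of the TCDD-to-DMSO ratio over the 6 members were 0.876 and 1.11 at 60 hpf. At 36 hpf they were 0.884 and 1.09, the lower one being a log2 difference of -0.18. Some alternatives went below it at 36 hpf, to -0.25 for miR-19b and -0.21 for miR-17a. Over all 9 probes the upper log2 limit at 60 hpf was 0.18, against 0.15 for the brightest probes. At 36 hpf scan and treatment cannot be told apart, so the ratio is not bounded beyond these settings.

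The TCDD effect was not shown to differ between stages. Of the members, 0 of 6 passed on Agilent, where 0% of all miRNAs passed, and 0 of 6 on Exiqon, where 2.69% did. At an unadjusted p under 0.05 there were 0 members on Agilent and 1 on Exiqon, miR-19b, at -0.12 (unadjusted p = 0.0272, adjusted p = 0.275).

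**Figure D4:**
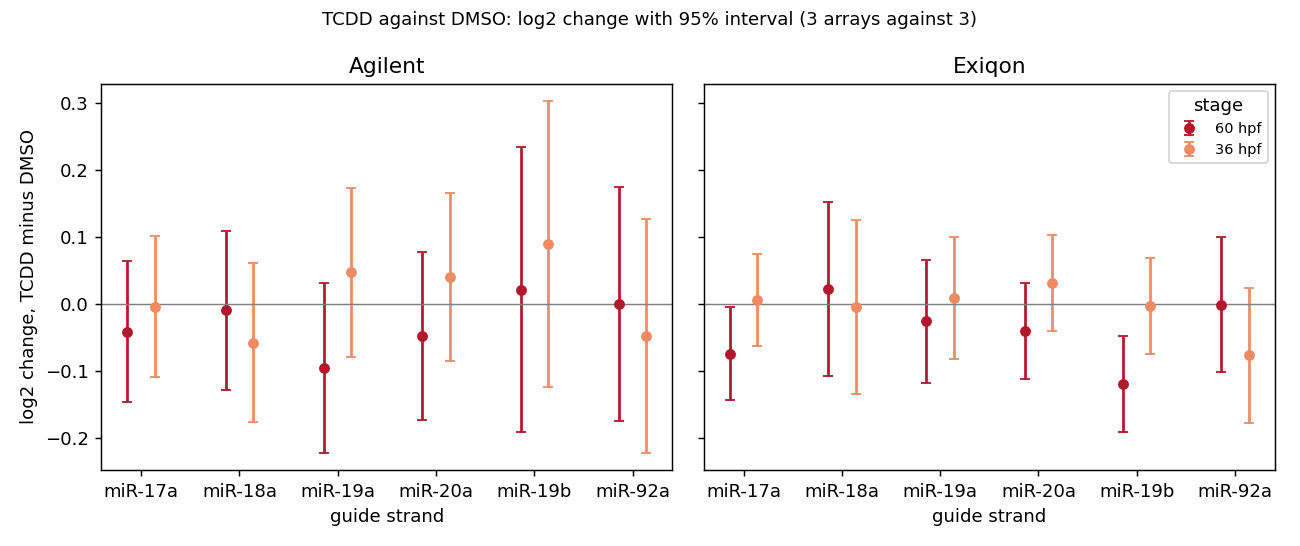
Log2 change of each guide strand with TCDD (TCDD minus DMSO, y axis) at 60 and at 36 hpf with 95% intervals, 3 arrays against 3, for Agilent (left) and Exiqon (right), with the saturated probe for miR-19b on Agilent. All intervals span 0 except those of miR-17a and miR-19b at 60 hpf on Exiqon, and the lowest Exiqon point is miR-19b at 60 hpf, at -0.12.

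The members moved together across the 12 Agilent arrays, with Pearson r of 0.83 to 0.99 over 15 pairs (median 0.90), and less so on Exiqon, with r of 0.10 to 0.96 (median 0.54). These are descriptions over arrays that fall into 2 stages. The 5 other miRNAs whose pattern was most like the members' mean on Agilent were miR-430b, miR-430j, miR-430a, miR-430c and miR-153b, each at r = 0.99. MiR-430 is known in zebrafish for clearing maternal transcripts in the early embryo. On Exiqon they were miR-430c (0.96), miR-363 (0.95), miR-430j (0.94), miR-18c (0.94) and miR-430b (0.94), among miRNAs with a value on all 12 arrays. The median r was -0.73 over the 127 other miRNAs with an r on Agilent and -0.77 over 199 on Exiqon.

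**Figure D5:**
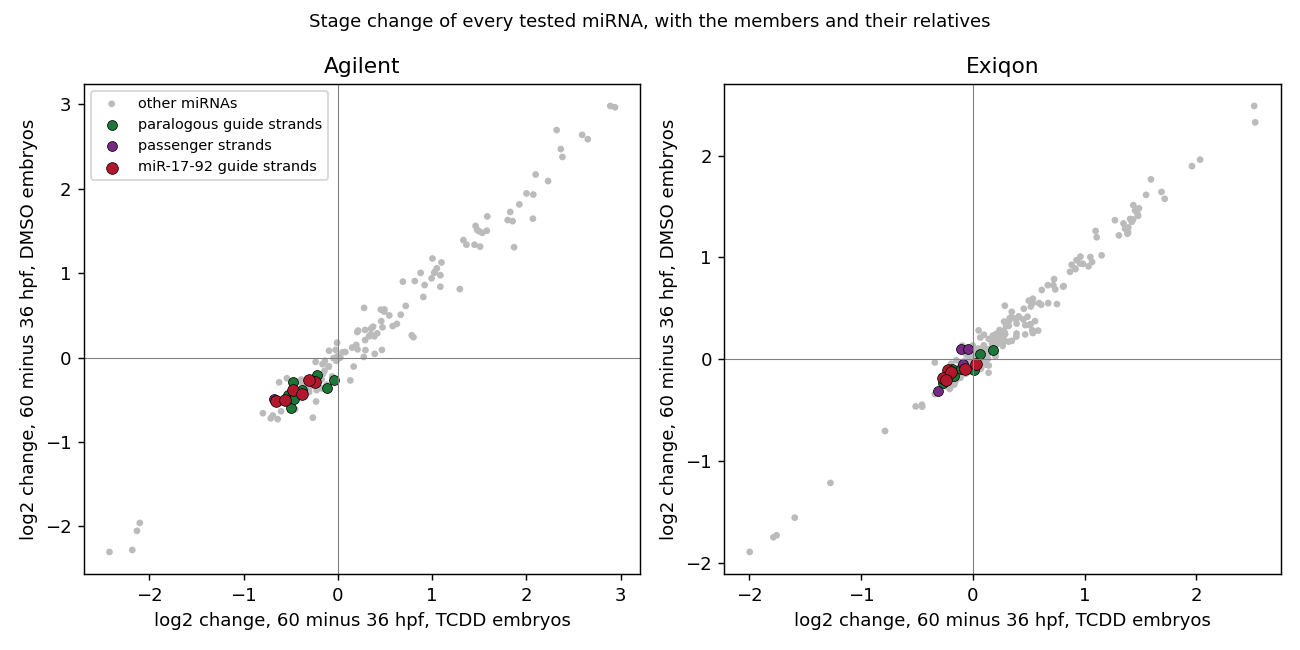
Log2 change between stages (60 minus 36 hpf) in TCDD embryos (x axis) and in DMSO embryos (y axis), 1 point per tested miRNA, for Agilent (left) and Exiqon (right), with guide strands, passenger strands and paralogues in colour. On Agilent the 6 members lie between -0.65 and -0.24 on the x axis, in the lower left quadrant, while the lowest miRNA of all is at -2.42.

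Of the cluster's 6 passenger strands, 1 was tested on Agilent and 4 on Exiqon. MiR-17a*, the partner of miR-17a, differed with TCDD on Exiqon where its guide strand did not pass. Its ratios were -0.14, -0.17 and -0.05 in TCDD and -0.36, -0.40 and -0.40 in DMSO embryos at 60 hpf, and 0.21, 0.14 and 0.23 in TCDD and -0.07, -0.08 and -0.08 in DMSO embryos at 36 hpf. It was higher with TCDD by 0.27 ± 0.04 at 60 hpf (adjusted p = 0.000295) and by 0.27 ± 0.04 at 36 hpf (adjusted p = 0.00145). It was the only 1 of the 4 to pass at either stage, where 5.38% of all miRNAs passed at 60 hpf and 0.448% at 36 hpf. Its Exiqon probe was dim too, with a sample signal of 175 to 266, against 4811 to 8773 for the brighter miR-17a probe. At 36 hpf scan and treatment cannot be told apart, and at 60 hpf image analysis day and treatment are largely confounded. No alternative setting is reported here for miR-17a*. On Agilent its probe was dim, at 0.0275 to 0.0298 in both treatments at 60 hpf, where 2 of 3 TCDD arrays and 1 of 3 DMSO arrays detected it and the floor was 0.0275. Its TCDD difference there was 0.0030 ± 0.08 at 60 hpf (adjusted p = 0.997) and 0.18 ± 0.08 at 36 hpf (adjusted p = 0.906). MiR-17a* was lower at 60 than at 36 hpf on Exiqon, by -0.32 in TCDD (adjusted p = 3.07e-06) and -0.31 in DMSO embryos (adjusted p = 3.19e-06).

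Of 12 paralogous guide strands, 8 were tested on Agilent and 9 on Exiqon, and none passed for TCDD at either stage. Of all miRNAs, 2.99% passed at 60 hpf and 0.746% at 36 hpf on Agilent, and 5.38% and 0.448% on Exiqon. Between stages 6 of 8 passed downward on Agilent in TCDD embryos, against 31.3% of all miRNAs, and 7 of 8 in DMSO embryos, against 32.1%. All 8 had negative differences in both treatments, with a median of -0.42 and -0.37. Over all 134 miRNAs, 58 and 57 were negative, with a median of 0.21 and 0.11. MiR-18c fell by 0.53 in TCDD embryos and by 0.44 in DMSO embryos, and miR-20b by 0.49 and by 0.59. On Exiqon 6 of 9 passed downward in TCDD embryos, against 16.1% of all miRNAs, and 5 of 9 in DMSO embryos, against 16.6%. Negative differences numbered 6 of 9 and 7 of 9, against 71 and 76 of all 223 miRNAs. Among those that passed, miR-20b fell by 0.27 in TCDD and by 0.23 in DMSO embryos. MiR-93, of the miR-17 seed family, rose by 0.18 in TCDD embryos on Exiqon (adjusted p = 0.000513), whereas it was at -0.11 on Agilent (adjusted p = 0.253).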

How the data were processed

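The Agilent files deposited by the authors hold spot intensity from Feature Extraction 9.5, per the file headers, and the deposited value table equals the processed signal. The Exiqon files deposited by the authors hold spot and local background intensity for Hy3 (sample) and Hy5 (reference pool), per the labels and file headers. Of an array's files, that with the brighter Hy3 control spots was taken as the Hy3 channel, and the sign of the ratios rests on this. The deposited Exiqon table, a log2 ratio by its values, was an alternative. How it was normalized is not stated in the sources used.

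Agilent outlier spots were left out, each array was scaled to its 75th percentile among the 185 probes that all 12 arrays detected, and dim spots were floored at 0.0275 before log2. Detection required a share of at least 0.5 of a probe's spots well above background. A name took its brightest probe and needed it detected throughout at least 1 group. Exiqon flagged spots were left out, with normexp (offset 50), loess within each array and the brightest probe. An Exiqon spot counted as detected when its signal exceeded its background mean by more than 2 standard deviations of that background. The same share of spots was required. A name needed at least 1 value in every group. The Agilent floor and this last rule were set after results had been seen, and miR-19b at 60 hpf on Exiqon falls on either side of the threshold by the latter. Models were fitted with limma 3.58.1 in R 4.3.3 (with data.table, version 1.17.8), and all 6 members are named. With 3 arrays a group, exact permutation p-values cannot go below 0.1, so none was used. The scripts were tested on simulated data. Nothing states that replicates came from separate clutches, so p-values measure the spread between these samples. The members and lists were chosen with earlier results of these data known.

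Alternatives covered background correction, scaling, filters, probe choice, slide, scan and image analysis day, the replicate block, the deposited table and leaving out each array. Figures were drawn with matplotlib 3.10.9 in Python 3.11.15.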

Additional observations from a re-analysis of the deposited data

How the results depend on the processing

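The TCDD counts stayed at 0 of 6 on Agilent at both stages and for the interaction under every alternative run. Quantile normalization lowered the Agilent stage counts to 3 of 6 in TCDD and 3 of 6 in DMSO embryos, with miR-19b at 0.0087 and miR-20a at 0.031 in TCDD embryos. Leaving out each array in turn kept the Agilent stage counts at 6 of 6, and the probe counts at 9 to 12 in TCDD and 11 to 12 in DMSO embryos. With the 75th percentile over all miRNA probes, all 6 members were lower in both treatments, but 48 miRNAs were higher and 62 lower in TCDD embryos, and 45 and 66 in DMSO embryos, against 68 and 42, and 64 and 43; quantile normalization gave 45 and 61, and 47 and 63. Median centring of Exiqon left 1 of 6 members past the threshold in DMSO embryos, upward, and gave miR-17a 0.32, miR-18a 0.49, miR-19a 0.34, miR-19b 0.38 and miR-20a 0.39 in TCDD embryos and 0.24, 0.32, 0.22, 0.32 and 0.31, in the same order, in DMSO embryos. The Exiqon sample channel alone gave miR-19b 0.044 in TCDD embryos. The causes were not tested. At 60 hpf the Exiqon TCDD count was 1 of 6, miR-19b, with the mean of all probes (adjusted p = 0.0497) and with names missing on at most 1 array (chosen after seeing the data), and 0 to 1 with an array left out: it passed without TCDD replicate 3 at 36 hpf, without DMSO replicate 1 at 60 hpf and without TCDD replicate 2 at 60 hpf. The last of these sets TCDD arrays of image analysis day 2 against DMSO arrays of day 1, so day and treatment cannot be told apart in it. Within image analysis day 2 the Exiqon stage count in TCDD embryos was 2 of 6, with 2 arrays at 60 hpf against a lone array at 36 hpf that is assumed to vary like the others. Leaving out arrays gave 4 in TCDD and 3 to 4 in DMSO embryos, where miR-19b missed without DMSO replicate 3 at 36 hpf (adjusted p = 0.0592) or DMSO replicate 1 at 60 hpf (adjusted p = 0.0633). Among all 720 Agilent and 738 Exiqon comparisons, past the threshold or not, 35 and 55 changed sign while passing in neither setting. Same-numbered arrays deviated together at r of -0.54 to 0.60 on Agilent and -0.29 to 0.31 on Exiqon. On Agilent the mean r was 0.13, against -0.06 for arrays of unlike number, and on Exiqon 0.0096 against -0.0054. Of the arrays, 7 of 12 on Agilent and 3 of 12 on Exiqon correlated best with their own number. Replicate 1 of every Agilent group was on the first slide, so pairing and slide cannot be told apart there. Whether the numbers pair samples was not settled. The replicate block left 6 of 6 Agilent members lower in both treatments and 4 of 6 on Exiqon, and changed no call.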
